A study of Mus musculus with 18 samples.

Results

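The mouse Trim5/12/30/34 cluster is a run of 10 neighbouring TRIM genes on chromosome 7, here Trim6, Trim34a, Trim5, Trim12a, Trim34b, Trim12c, Trim30b, Trim30c, Trim30a and Trim30d in genomic order. The 10 genes were picked by symbol out of 21734 protein-coding genes in the count table, and the cluster was chosen because Trim12a and Trim5 had differed between knockout and control libraries in these same data. Differences between the knockout and the other genotypes, and between their responses, are therefore given as values, with no test. RNA was sequenced from bone marrow-derived macrophages (BMDMs) of mice in 6 groups of 3 libraries each, with total counts between 4071084 and 19818043 per library. The genotypes were miR-146 WT, a miR-146 KO, and 3'F, a mutant allele in which the seed of miR-146a is kept while most bases of its 3′ region are swapped for near complements. Cells of each genotype were either left resting or given LPS at 1 ng/ml for 16 hours. Per the labels, all mice were 6 to 7 months old on a mixed 129/B6 background, and their marrow was grown for 8 to 9 days in M-CSF at 10 ng/mL. The KO and 3'F lines each went back to targeted 129 by C57BL/6 embryonic stem cells, were backcrossed to C57BL6/J and were bred apart, and WT mice came from both lines. The 2 mutant groups could thus differ from each other, and from WT, in more than the miR-146a allele. For its proteomics, which used fractions of the same cultures by its own account, the study's methods give a younger age. The labels name 3 mice of each genotype and the study speaks of biological replicates, but neither ties each library to a mouse, so the tests measure the spread between libraries, which may be partly technical.

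TRIM proteins carry a RING domain, which gives them ubiquitin ligase activity, followed by B-box and coiled-coil domains and, in most members, a C-terminal domain that recognises the target. TRIM5 is best known for binding the capsids of incoming retroviruses, and mice hold several copies related to TRIM5 and TRIM34 in place of the single human genes. Many TRIM genes are induced by interferon, and LPS makes macrophages release type I interferon through TLR4.

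The cluster spanned chr7:104218793-104507849 on GRCm38, about 289 kb, with positions taken from Gencode M21. Trim6, Trim34a and Trim34b lie on the plus strand and the other 7 copies on the minus strand. The copies fall into groups of near relatives, which bears on how their reads were assigned. The coding sequences of Trim34a and Trim34b had 97.7% identical alignment columns, Trim5 and Trim12c had 96.6%, and Trim30a and Trim30d had 90.0%. Trim12a encodes 297 codons against 497 in Trim5 and Trim12c, and 97.1% of its coding bases matched Trim5. Trim30b was the shortest, with 203 codons. The study discarded reads below a mapping quality of 50, which removes reads that match several places equally well. Of all 50-base words in the annotated exons of Trim34b, 43.2% occurred in the transcripts of no other gene, against 60.2% for Trim34a, 64.6% for Trim5, 67.7% for Trim12c and 89.5% for Trim12a. The Trim30 copies and Trim6 were at 92.5% or above. Counts of Trim34a, Trim34b, Trim5 and Trim12c therefore rest on part of each gene and are less certain than those of the Trim30 copies.

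**Figure D1:**
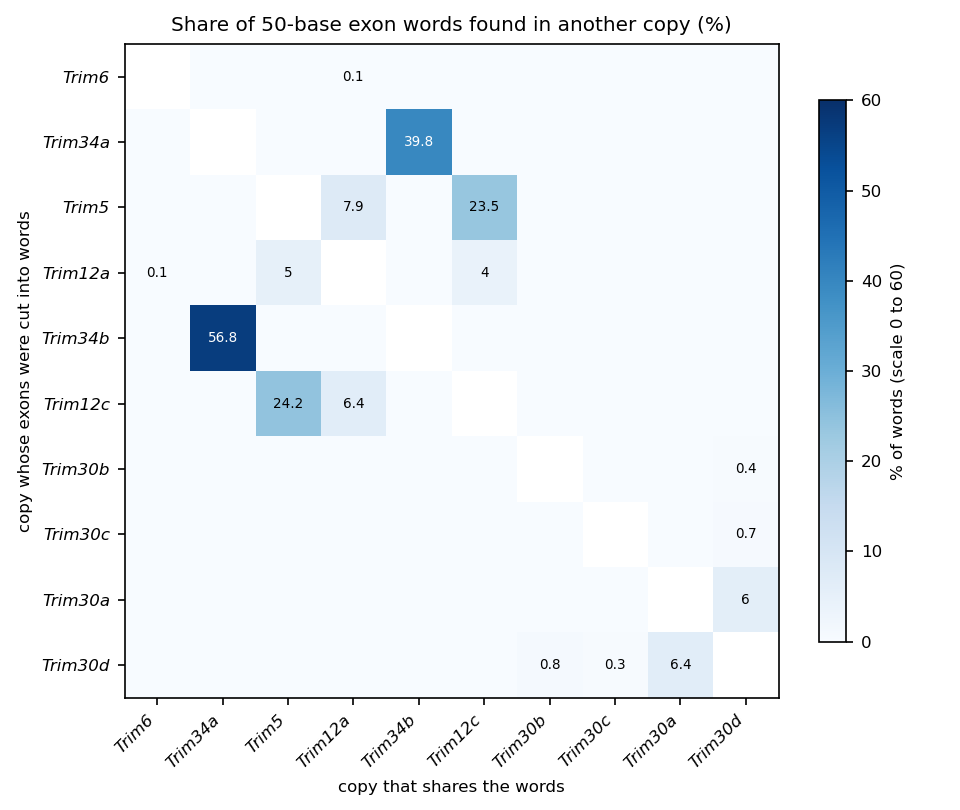
Share of the 50-base words in the exons of each copy (rows) that also occur in the exons of another copy (columns), in percent, with cells at 0 left empty and the diagonal not drawn. The largest shares are 56.8% of Trim34b in Trim34a, 39.8% of Trim34a in Trim34b, and 24.2% of Trim12c in Trim5.

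The following stretches of coding sequence are shown because they tell apart the copies whose levels differed between genotypes. Each pair of 30-base windows lies within 1 exon of both copies and is the pair with the most differing bases, which are in capitals, written 5′ to 3′ on the gene's strand.
Trim34a (chr7:104247827-104247856, plus strand, exon 2): cGtgtatgccaagcctgtctcatcAcgaaG
Trim34b (chr7:104329644-104329673, plus strand, exon 1): cTtgtatgccaagcctgtctcatcTcgaaC
Trim12a (chr7:104307171-104307200, minus strand, exon 2): atccaTcaaatgcgataagAaaGtgttcaT
Trim12c against Trim12a (chr7:104348187-104348216, minus strand, exon 2): atccaCcaaatgcgataagGaaAtgttcaG
Trim5 (chr7:104265862-104265891, minus strand, exon 8): gaccAccaagcaagTaatcttATacaCgAG
Trim12c against Trim5 (chr7:104341270-104341299, minus strand, exon 8): gaccTccaagcaagGaatcttGAacaTgGC
Even in these windows the Trim34 copies differed at only 3 bases and Trim12a and Trim12c at 4, against 7 for Trim5 and Trim12c.

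The promoters are shown because most of the copies rose with LPS. RefSeq promoter windows on GRCm38.p6, from 250 bases before to 50 bases after each start, were found for all 10 copies, with 2 for Trim30a. They were searched on both strands for the core of the interferon-stimulated response element, spelled GAAA, then 2 bases of any kind, then GAAA, which reads as a pair of TTTC on the other strand. The pattern occurred in the windows of 6 copies, and in 7 of the 11 windows (63.6%), against 3.44% of 32851 promoters of all genes. The windows of Trim6, Trim34b, Trim30b and Trim30c held none. That of Trim30b (chr7:104358597-104358896, minus strand) lay inside the gene, whose upstream end in Gencode M21 is 104369884. Sequence before that end was not searched for Trim30b. The 30 bases around each match follow, on the gene's strand, with the match in capitals.
Trim34a (chr7:104244457-104244486, plus strand): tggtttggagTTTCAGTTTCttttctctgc
Trim5 (chr7:104288136-104288165, minus strand): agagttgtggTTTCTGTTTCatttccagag
Trim12a (chr7:104315466-104315495, minus strand): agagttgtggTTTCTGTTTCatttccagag
Trim12c (chr7:104353359-104353388, minus strand): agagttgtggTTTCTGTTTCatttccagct
Trim30a (chr7:104465210-104465239, minus strand): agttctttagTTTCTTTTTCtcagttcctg
Trim30a, next promoter (chr7:104446104-104446133, minus strand): ttgtttttagTTTCTTTTTCtcagttcctg
Trim30d (chr7:104507871-104507900, minus strand): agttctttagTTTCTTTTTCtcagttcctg
The 30 bases of Trim5 and Trim12a were identical, as were those of Trim30d and the first promoter of Trim30a.

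The microRNA and its possible sites are shown because its alleles define the genotypes. The mature strand on GRCm38 is printed with the seed, bases 2 to 8, in capitals.
mmu-miR-146a-5p (chr11:43374435-43374456, minus strand): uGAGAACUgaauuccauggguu
The longest annotated 3′ UTR of each gene was searched for AGTTCTC, the reverse complement of the seed, or GTTCTCA. Trim5 held 1 match and Trim12c held 2, and the other copies held none, with no 3′ UTR annotated for Trim30c. Across 20788 genes with a 3′ UTR, 18.2% held a match. Trim5 and Trim12c share a site with the same 30 bases, and Trim12c has another.
Trim5 (chr7:104265079-104265108, minus strand): ataacactgctgcaaAGTTCTCttattctt
Trim12c, first (chr7:104340483-104340512, minus strand): ataacactgctgcaaAGTTCTCttattctt
Trim12c, next (chr7:104340371-104340400, minus strand): tacctcagctctgtcAGTTCTCtataactt
A match of these letters is a description of the sequence and does not show that the microRNA acts there.

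All 10 copies passed the filter on low counts and were among 11357 genes tested. Trim34b passed it only through its KO libraries, and its WT and 3'F libraries held 1 to 17 counts each. The cells carried macrophage markers throughout: all 8 listed markers were detected, and their summed level ran from 31760.1 to 87878.1 CPM, the reads of a gene per 1000000 reads of its TMM-scaled library. Lyz2, 1 of the 8, was the top gene of every library with 3.05 to 6.1% of its counts, and made up most of this sum. These are bulk samples, in which fewer cells of a type and less RNA per cell cannot be told apart. Markers of neutrophils and their precursors summed to at most 67.6 CPM, and those of B, T and NK, dendritic, erythroid, mast cell and fibroblast lineages to at most 3.73 CPM. Of the libraries, 2 stood apart from their groups. The resting KO library of replicate 3 lay at 19.7 on the first principal component, where the other resting KO libraries lay at -28.2 and -31.4 and the LPS libraries at 17.4 or above. The resting 3'F library of replicate 3 had the lowest total count and lay at -50.3 on the second component. Most values that either of them moved by over 1.5 times, or whose call it changed, are also given without it or library by library.

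Trim30a, a brake on TLR-driven NF-kB signalling through TAB2 and TAB3, had the most reads of the 10 copies in each of the 18 libraries. Per kilobase of the deposited gene length, it was the highest copy in resting WT, with 14.3 ± 2.94 CPM per kb (SD, n = 3), and in WT after LPS, with 95.4 ± 27.3 CPM per kb. The lowest copy was Trim30b at rest (0.0384 ± 0.012 CPM per kb) and Trim34b after LPS (0.217 ± 0.102 CPM per kb). The place of Trim12c depended on the length used: it came next to Trim30a in resting WT with the deposited length (11.4 CPM per kb), and behind Trim34a (5.97 CPM per kb) with the merged exons of Gencode M21 (3.41 CPM per kb). The 10 copies together took 99.3 to 125.9 CPM in resting WT libraries and 432.5 to 845.0 CPM in WT libraries with LPS. In KO they took 115.7 and 147.3 CPM in 2 resting libraries, 594.4 CPM in replicate 3, and 588.5 to 639.3 CPM after LPS.

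**Figure D2:**
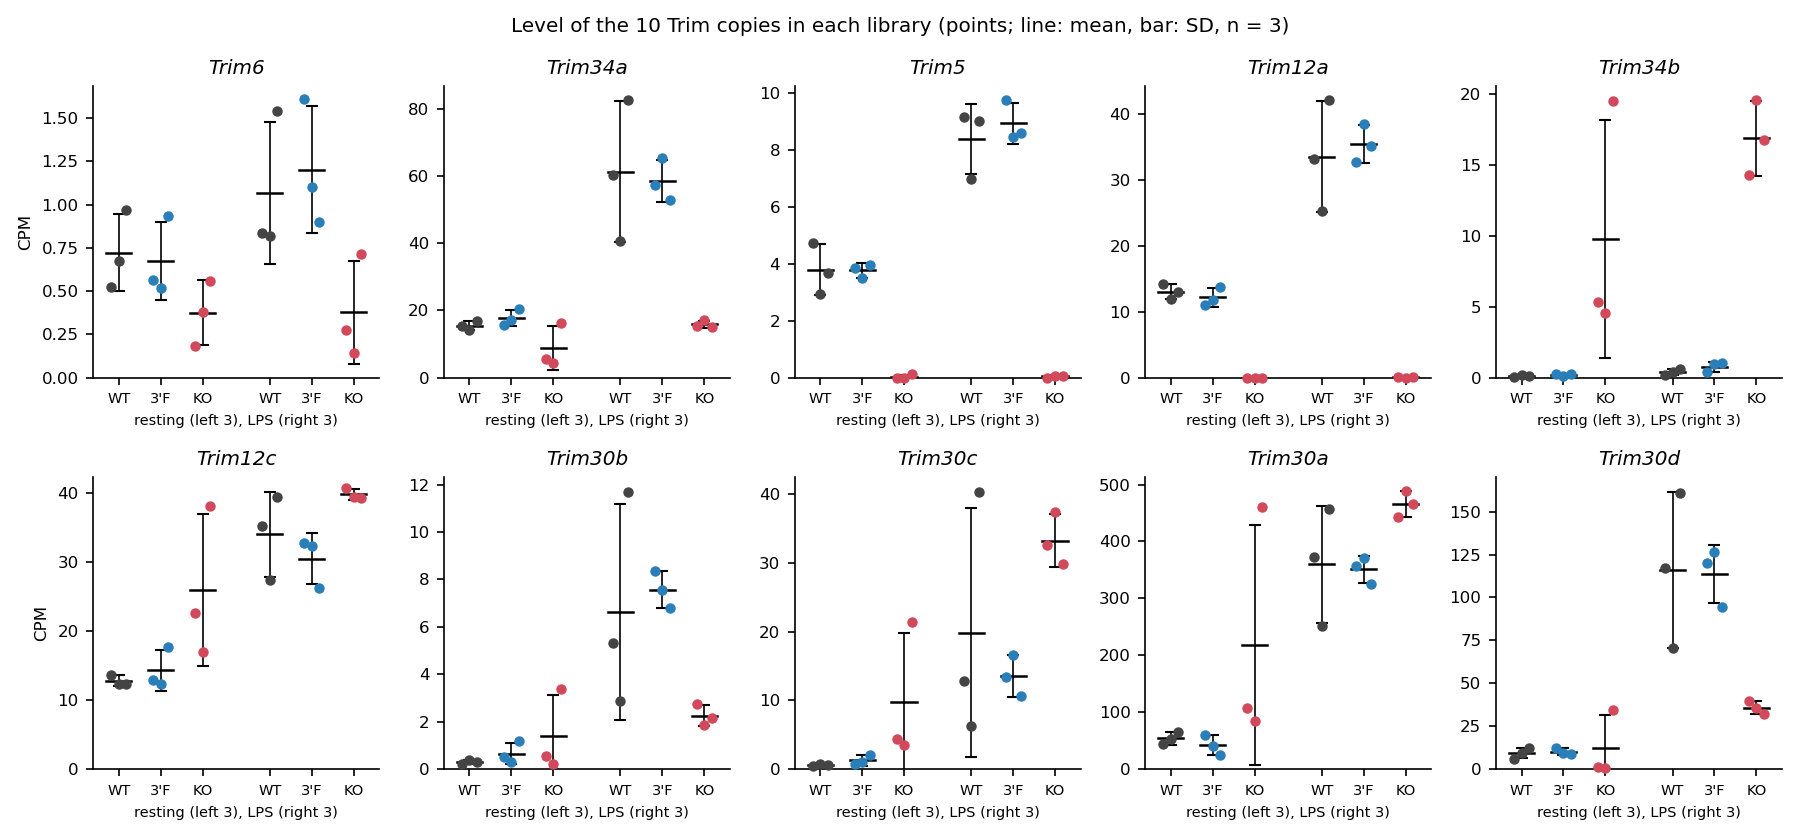
CPM of each copy in each of the 18 libraries (points), with the group mean (line) and SD (bar, n = 3, cut at 0). Each panel has its own linear axis from 0. Trim5 and Trim12a sit at or near 0 in all 6 KO libraries, Trim34b is near 0 in the WT and 3'F libraries, and the resting KO library of replicate 3 lies close to the KO libraries with LPS for most copies.

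The clearest differences in KO concerned Trim12a and Trim5, relatives of the capsid-binding TRIM5, and Trim34b, a relative of the interferon-induced TRIM34. Trim12a had counts of 216, 158 and 135 in resting WT, 195, 204 and 59 in resting 3'F, and 0 in each of the 3 resting KO libraries. Its level was 13.0 ± 1.15 CPM in resting WT and 12.2 ± 1.41 CPM in resting 3'F (SD, n = 3), at least 52.1-fold and at least 48.7-fold above the level that 3 counts per library would give in resting KO. With LPS the counts were 476, 369 and 574 in WT, 447, 703 and 274 in 3'F, and 1, 0 and 1 in KO. WT with LPS held 1419 Trim12a reads against 2 in KO, a ratio of 705.0 per library size (95% exact interval 194.8 to 5826.7, covering counting error only, as do the intervals and floors that follow). The KO libraries lay below all WT and 3'F libraries in both states.

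Trim5 gave the same picture at a lower level. Its counts were 72, 39 and 38 in resting WT, 68, 60 and 17 in resting 3'F, and 0, 0 and 1 in resting KO. With LPS they were 131, 102 and 123 in WT, 133, 154 and 67 in 3'F, and 0, 1 and 1 in KO. The ratio of WT to KO was 146.4 at rest (95% exact interval 25.9 to 5820.0) and 176.9 with LPS (48.6 to 1466.0). The ratio of 3'F to KO was 140.9 at rest (24.9 to 5604.4) and 188.8 with LPS (51.9 to 1565.2). No KO library overlapped a WT or 3'F library for Trim5.

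Trim12c, the near twin of Trim5 that is known to act with TRAF6 in type I interferon and NF-kB signalling, was not lost. Resting libraries held 13.7, 12.3 and 12.4 CPM in WT, 12.9, 12.3 and 17.7 CPM in 3'F, and 22.7, 17.0 and 38.2 CPM in KO. Resting KO was 1.01 ± 0.23 above resting WT on the log2 scale (fitted log2 fold change ± SE), or 0.64 ± 0.18 without the resting KO library of replicate 3. With LPS the KO libraries, at 39.3 to 40.8 CPM, overlapped those of WT, at 27.4 to 39.5 CPM. Trim5 and Trim12a together made up 56.8 ± 1.81% of the reads of the trio Trim5, Trim12a and Trim12c in resting WT, 53.0 ± 2.71% in resting 3'F, and 0.0977 ± 0.169% in resting KO (SD, n = 3). The summed level of the trio was 75.9 ± 15.6 CPM in WT with LPS, 74.8 ± 4.72 CPM in 3'F, and 39.9 ± 0.839 CPM in KO. At rest the trio's sum was 29.6 ± 2.78 CPM in WT, and 22.7, 17.0 and 38.3 CPM in the 3 KO libraries.

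Trim34b was the reverse case. Its counts were 1, 2 and 1 in resting WT, 4, 2 and 1 in resting 3'F, and 86, 60 and 174 in resting KO. With LPS they were 3, 6 and 8 in WT, 5, 17 and 8 in 3'F, and 207, 271 and 236 in KO. KO held 81.4 times the resting WT level (95% exact interval 31.5 to 300.7) and 42.3 times that of WT with LPS (26.2 to 73.0). Against 3'F the ratios were 47.0 at rest (22.6 to 117.9) and 22.3 with LPS (15.5 to 33.3). Without the resting KO library of replicate 3, the resting ratios were 48.5 (18.5 to 180.3) over WT and 28.0 (13.2 to 70.9) over 3'F. Trim34b was thus barely counted outside KO. Of its words in the annotated transcripts, 43.2% are its own, and how its reads were assigned in these mice was not tested.

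Trim34a, its close relative, moved the other way in KO. It stood at 15.4, 14.1 and 16.9 CPM in resting WT, 15.8, 17.1 and 20.5 CPM in resting 3'F, and 5.62, 4.43 and 16.4 CPM in resting KO. With LPS it stood at 60.3, 40.8 and 82.8 CPM in WT, 57.4, 65.4 and 53.0 CPM in 3'F, and 15.4, 17.1 and 15.1 CPM in KO. All KO libraries with LPS lay below all WT and 3'F libraries with LPS, and KO was 1.95 ± 0.33 lower than WT on the log2 scale, 3.86-fold. At rest, 2 of the 3 KO libraries lay below all controls, and without replicate 3 the log2 difference went from -0.86 ± 0.35 to -1.61 ± 0.25. The split between the Trim34 copies was steady within a genotype: Trim34b made up 0.684 ± 0.333% of the reads of Trim34a and Trim34b in resting WT, 1.07 ± 0.371% in resting 3'F and 51.3 ± 2.93% in resting KO. With LPS the shares were 0.681 ± 0.324%, 1.31 ± 0.638% and 51.4 ± 2.97%. The sum of Trim34a and Trim34b was 61.7 ± 21.1 CPM in WT with LPS and 32.8 ± 3.58 CPM in KO.

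**Figure D3:**
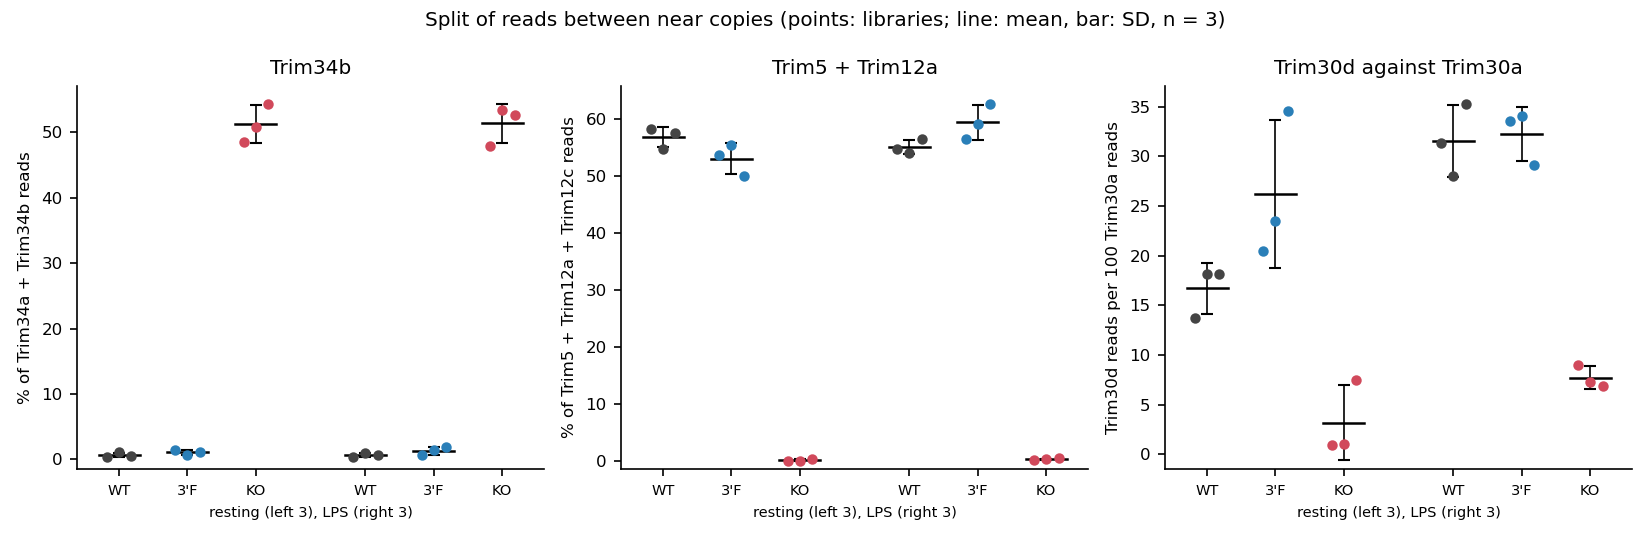
Split of reads between near copies in each library (points), with group mean (line) and SD (bar, n = 3): Trim34b as a percentage of Trim34a plus Trim34b (left), Trim5 plus Trim12a as a percentage of these and Trim12c (middle), and Trim30d reads per 100 Trim30a reads (right). The 6 KO libraries sit near 50% in the left panel, near 0% in the middle, and below all WT and 3'F libraries on the right.

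The Trim30 copies diverged from one another in KO. Trim30a stood at 44.1, 52.2 and 66.0 CPM in resting WT, 59.6, 41.0 and 24.9 CPM in resting 3'F, and 107.6, 84.8 and 460.3 CPM in resting KO. All 3 resting KO libraries were above the 6 control libraries, by 2.01 ± 0.48 over WT on the log2 scale, and by 0.83 ± 0.27 without replicate 3. With LPS its range was 251.4 to 456.4 CPM in WT, 325.3 to 370.3 CPM in 3'F and 442.5 to 488.3 CPM in KO, so KO overlapped WT. Trim30a made up 48.9 ± 4.1% of the reads of the 10 copies in resting WT and 74.6 ± 2.47% in resting KO, and 56.6 ± 2.24% and 76.3 ± 1.1% with LPS. Counted per kb of deposited length, the shares were 32.3 ± 4.52% and 54.6 ± 6.86% at rest.

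Trim30d, also called Trim79, is the closest relative of Trim30a and had the lower level in most KO libraries. It stood at 6.04, 9.48 and 12 CPM in resting WT, 12.2, 9.62 and 8.62 CPM in resting 3'F, and 1.05, 0.841 and 34.6 CPM in resting KO. The first pair of KO libraries lay below all controls and the last one above them, so the resting log2 difference from WT was 0.32 ± 0.83, and -3.23 ± 0.44 without replicate 3. With LPS it stood at 116.9, 70.3 and 161.0 CPM in WT, 120.1, 126.2 and 94.5 CPM in 3'F, and 39.8, 35.5 and 32.0 CPM in KO. The KO libraries with LPS lay below all 6 controls, by 1.70 ± 0.75 on the log2 scale against WT. Set against Trim30a in the same library, which does not depend on library size, resting WT libraries held 13.7 to 18.2 Trim30d reads per 100 Trim30a reads, resting 3'F libraries 20.5 to 34.6, and resting KO libraries 0.976, 0.991 and 7.51. With LPS the figures were 28.0 to 35.3 in WT, 29.1 to 34.1 in 3'F and 6.88 to 8.99 in KO. The resting KO library of replicate 3 thus lay within the range of the KO libraries with LPS in this ratio.

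Trim30c was higher in resting KO, with 4.33, 3.44 and 21.4 CPM against 0.394, 0.753 and 0.58 CPM in resting WT and 0.677, 0.985 and 2.1 CPM in resting 3'F. The log2 difference from WT was 4.01 ± 0.88, and 2.76 ± 0.78 without replicate 3. After LPS, KO libraries held 29.8 to 37.4 CPM and overlapped WT libraries, which ran from 6.28 to 40.4 CPM. Trim30b was low throughout, at 0.288 ± 0.0897 CPM in resting WT and at 0.556, 0.229 and 3.37 CPM in the resting KO libraries. With LPS it reached 5.3, 2.87 and 11.7 CPM in WT, 8.35, 7.56 and 6.8 CPM in 3'F, and 2.75, 1.88 and 2.14 CPM in KO, where no KO library overlapped a control. Trim6, whose product makes unanchored ubiquitin chains that activate IKK-epsilon, stayed at 1.61 CPM or below in every library, and its KO libraries with LPS (0.145 to 0.713 CPM) lay below the other 6 (0.819 to 1.61 CPM). This rests on few reads, with Trim6 counts of 4, 2 and 10 in KO, 12, 12 and 21 in WT, and 22, 20 and 7 in 3'F.

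Counted over the cluster, 3 of 10 copies (Trim34b, Trim30c and Trim30a) were higher in every resting KO library than in all 6 resting WT and 3'F libraries, and 2 of 10 (Trim5 and Trim12a) were lower. Among all genes tested, 9.53% were higher and 8.59% lower in this sense. Without the resting KO library of replicate 3, the lower ones numbered 5, with Trim6, Trim34a and Trim30d added, against 14.6% of all genes. With LPS, 1 of 10 was higher (Trim34b) and 6 of 10 were lower (Trim6, Trim34a, Trim5, Trim12a, Trim30b and Trim30d), against 11.5% and 10.2% of all genes tested. Leaving out the WT library with LPS of replicate 3 raised the number higher to 4. The share of all genes in that setting is not given here, and 11.5% belongs to the full set. Because the cluster was chosen on these contrasts, nothing is read from these counts.

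The LPS response of the controls was not used to choose the cluster and was tested. In WT, 8 of 10 copies rose with LPS by edgeR's quasi-likelihood test with Benjamini-Hochberg adjustment over all genes, against 16.3% of all genes tested that were called higher. The same 8 rose in 3'F, where 17.2% of all genes were called higher, and Trim6 and Trim34b were the exceptions in both. The exception of Trim34b depended on the resting KO library of replicate 3, as given below. The median log2 fold change over the 10 copies was 1.92 in WT and 1.88 in 3'F, where the medians over all genes were 0.02 and -0.01. For 9 of 10 copies, every LPS library lay above every resting library in WT, and likewise in 3'F, with Trim6 as the exception in both, against 25.9% and 25.2% of all genes tested. Trim34b is among the 9 with no more than 8 counts per WT library and 17 per 3'F library. In KO this held for 2 of 10, Trim12c and Trim30c, against 23.8% of all genes. Trim34a, Trim34b, Trim30b, Trim30a and Trim30d overlapped there only through the resting KO library of replicate 3. Trim5 and Trim12a were at or near 0 in both KO states and could not be assessed. The share of all genes without that library is not given here.

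The Trim30 copies had the highest fold changes. In WT, Trim30c rose 34.3-fold (log2 5.10 ± 0.85 SE, adjusted p = 0.000342, edgeR), Trim30b 22.5-fold (4.49 ± 0.77, adjusted p = 0.000464, edgeR), Trim30d 12.8-fold (3.68 ± 0.84, adjusted p = 0.00376, edgeR) and Trim30a 6.66-fold (2.74 ± 0.49, adjusted p = 0.000638, edgeR). Without the WT library with LPS of replicate 3, which held the highest level of each, Trim30c rose 16.6-fold and Trim30b 14.0-fold. Both fold changes rest on few resting reads, with counts of 6, 10 and 6 for Trim30c and 3, 5 and 3 for Trim30b in resting WT. In 3'F the same copies rose 13.4-fold, 14.6-fold, 11-fold and 8.26-fold, with adjusted p of at most 0.0052 by edgeR. The TRIM5 and TRIM34 relatives rose by smaller factors: Trim34a 3.96-fold in WT and 3.34-fold in 3'F, Trim12c 2.66-fold and 2.19-fold, Trim12a 2.56-fold and 2.95-fold, and Trim5 2.20-fold and 2.39-fold. Trim6 had 1.49-fold and 1.99-fold values that did not pass (adjusted p = 0.397 and 0.133, edgeR). Trim34b had 17 reads in WT with LPS against 4 at rest, a ratio of 3.87 (95% exact interval 1.26 to 15.8), and did not pass (adjusted p = 0.208, edgeR). In 3'F it did not pass either (adjusted p = 0.0862, edgeR). Without the resting KO library of replicate 3, which enters these responses only through the shared fit, Trim34b passed in both. The adjusted p was then 0.0307 in WT and 0.0055 in 3'F by edgeR. Of the 4 copies with no match to the response element in their promoter windows, Trim30b and Trim30c had the highest fold changes. Trim6 and Trim34b were not called in the fit of all 18 libraries. The window of Trim30b did not cover the upstream end of its gene in Gencode M21.

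**Figure D4:**
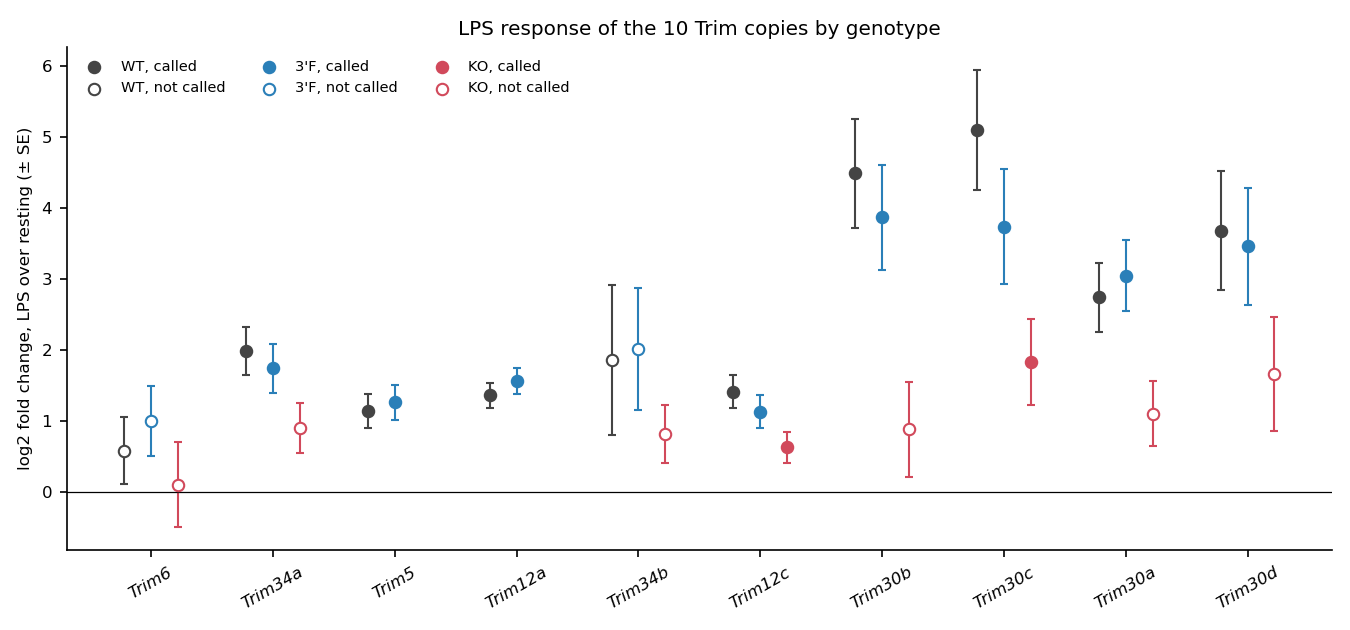
Log2 fold change of LPS over resting (± SE of the fit) for each copy in WT, 3'F and KO, with filled points for copies that passed the test at an adjusted p under 0.05 and open points for those that did not. Trim5 and Trim12a have no KO value because they were at or near 0 there. The Trim30 copies have the highest WT values, up to 5.10 for Trim30c, and the KO values lie below the WT values for all 8 copies shown. This order depended on the resting KO library of replicate 3. Without it Trim30d was at 5.22 in KO against 3.68 in WT. The other copies shown stayed lower in KO, some by little, such as Trim34b at 1.77 against 1.87.

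In KO, the LPS response of Trim12a and Trim5 could not be assessed, since both states were at or under 3 counts per library. Of the other 8 copies, 2 rose: Trim30c 3.57-fold (log2 1.83 ± 0.61, adjusted p = 0.0357, edgeR) and Trim12c 1.55-fold (0.63 ± 0.22, adjusted p = 0.0457, edgeR). In the same test 14.3% of all genes were called higher. When resting and LPS libraries of the same replicate number were fitted as pairs, 5 copies rose, beside 14.7% of all genes. Without the resting KO library of replicate 3 the number was 7, with Trim6 the exception, and 20.2% of all genes were called higher. Trim30d then rose by 5.22 ± 0.42 on the log2 scale (adjusted p = 2.06e-07, edgeR) in place of 1.66 ± 0.80 (adjusted p = 0.141, edgeR). Trim30a then rose by 2.27 ± 0.29 (adjusted p = 1.94e-05, edgeR) in place of 1.10 ± 0.46 (adjusted p = 0.0925, edgeR). Trim30c then rose 8.5-fold in place of 3.57-fold (log2 3.09 ± 0.57, adjusted p = 0.000531, edgeR). That library alone held Trim30a at 4.78 times and Trim30d at 36.6 times the mean of the other resting KO libraries. Leaving out either of the other resting KO libraries, or any KO library with LPS, left 0 copies called, and leaving out a WT or 3'F library, which takes part only in the shared estimate of the spread, left 1 or 2. The call in KO thus rested on single libraries, which was not so in WT or 3'F, where leaving out any single library left 8 or 9 copies called.

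The differences between the KO and WT responses are given for 8 copies as values only, since they are built from the contrasts on which the cluster was chosen. On the log2 scale they ran from -3.61 ± 1.07 for Trim30b to -0.47 ± 0.77 for Trim6. Without the resting KO library of replicate 3, the value for Trim30b was -2.04 ± 0.98, that for Trim30a went from -1.64 ± 0.66 to -0.46 ± 0.36, and that for Trim30d turned from -2.02 ± 1.12 to 1.53 ± 0.52. The size of these differences, and the direction of the last, thus depended on that library.

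The 3'F and WT libraries did not differ detectably at any copy. None of the 10 passed at rest or with LPS by edgeR, DESeq2 or limma-voom, and 0 had an unadjusted p under 0.05 in edgeR. Of all genes, 0.0% passed at rest and 0.00881% with LPS. At rest the log2 differences ran from -0.35 ± 0.47 for Trim30a to 0.83 ± 1.03 for Trim30b and 0.83 ± 1.14 for Trim30c. With LPS they ran from -0.53 ± 0.59 for Trim30c to 0.91 ± 0.72 for Trim34b. The 95% intervals (12 residual degrees of freedom) were narrowest for Trim12a, at -0.52 to 0.29 at rest and -0.29 to 0.46 with LPS. They were wide for the low copies, such as -1.99 to 3.48 for Trim34b at rest. No difference between the LPS responses of 3'F and WT was called at any copy either, with 0 of 10 called by edgeR, DESeq2 or limma-voom, 0 at an unadjusted p under 0.05 in edgeR, and 0.0% of all genes called. Those differences lay between -1.36 ± 1.29 for Trim30c and 0.42 ± 0.68 for Trim6.

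The genes beside the cluster were compared to see whether they moved with it. Of the other genes tested, 18 had their start within 2 Mb of its ends, and 3 of these 18 were higher and 1 was lower in every resting KO library than in all 6 controls, and 1 was higher and 3 were lower with LPS. As shares these were 16.7% and 5.56% at rest and 5.56% and 16.7% with LPS, beside 9.53% and 8.59%, and 11.5% and 10.2%, of all genes tested. Without the resting KO library of replicate 3, 5 of the 18 were higher and 2 lower at rest, beside 15.8% and 14.6% of all genes. The median KO against WT log2 difference of the 18 genes was 0.03 in both states. Gvin1, an interferon-inducible GTPase gene at 1707.5 kb from the cluster, stood at 29.5 ± 16.1 CPM in WT with LPS, 24.0 ± 4.6 CPM in 3'F and 3.96 ± 0.869 CPM in KO (SD, n = 3), with the WT libraries at 25.0, 16.2 and 47.4 CPM. Gm4070, at 1446.1 kb, stood at 3.26 ± 0.754 CPM in resting WT and at 7.23, 4.59 and 48.7 CPM in the resting KO libraries. Rrm1, which encodes the large subunit of ribonucleotide reductase, was lower in KO in both states, with 137.9 ± 2.66 CPM in WT and 66.1 ± 4.52 CPM in KO at rest. Trim68, chosen after its values were seen, was higher in both states, with 4.72 ± 0.175 CPM in WT and 7.26 ± 0.151 CPM in KO at rest. Dchs1, a protocadherin gene, had 3.03 ± 0.348 CPM in WT and 2.91 ± 0.823 CPM in KO at rest. In the WT response to LPS, Gvin1 rose by 3.24 ± 0.65 and Gm4070 by 3.15 ± 0.68 on the log2 scale, while Rrm1 fell by 0.95 ± 0.16 and Dchs1 fell by 0.92 ± 0.28 (adjusted p of at most 0.0219, edgeR). Of 106 genes within 10 Mb, 14 were higher and 6 lower in resting KO, and 16 were higher and 14 lower with LPS, or 13.2%, 5.66%, 15.1% and 13.2%.

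**Figure D5:**
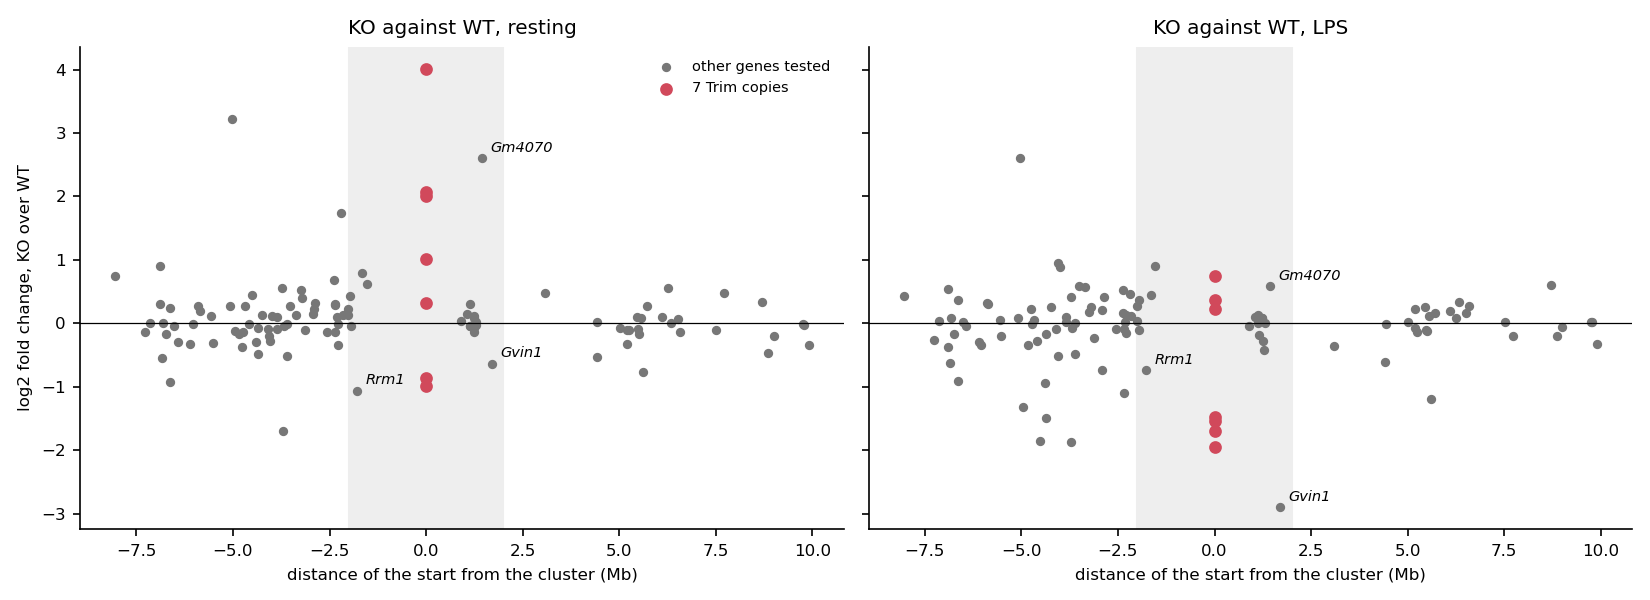
Log2 fold change of KO over WT at rest (left) and with LPS (right) for genes tested within 10 Mb of the cluster, by distance of the gene's start from the nearer end of the cluster in Mb (grey points), and for 7 of the copies (red points, at 0). The shaded band marks 2 Mb. Trim5, Trim12a and Trim34b are not drawn because a group was at or near 0. Trim6 and Trim30b are drawn but were also low, with counts of 3, 5 and 5 for Trim6 in resting KO and 3, 5 and 3 for Trim30b in resting WT. Gvin1 is the lowest point in the right panel.

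Of 31 other TRIM genes tested, 5 rose and 4 fell with LPS in WT, with a median log2 fold change of 0.01. These shares lay near those of all genes, of which 16.3% were called higher and 12.3% lower. Trim21, a cytosolic antibody receptor encoded on the same chromosome, rose by 1.58 ± 0.39 and Trim14 by 1.51 ± 0.36, while Trim59 fell by 1.12 ± 0.31 and Trim37 fell by 0.91 ± 0.16 (adjusted p of at most 0.0126, edgeR). Interferon-induced genes rose together with LPS: 30 of 30 were called higher in WT and 29 of 30 in 3'F, with medians of 4.13 and 4.23. Of all genes, 16.3% and 17.2% were called higher. In KO 5 of 30 were called higher, with a median of 1.32, beside 14.3% of all genes. Without the resting KO library of replicate 3 it was 29 of 30, with a median of 3.17, beside 20.2% of all genes. Mx1, an antiviral GTPase, had the highest value in WT at 7.15 ± 1.40 (adjusted p = 0.00127, edgeR), followed by Ifit2, whose product restricts viral translation, at 6.59 ± 1.22 (adjusted p = 0.000822, edgeR). The lowest were the cytidine deaminase gene Apobec3 at 1.31 ± 0.44 and Irf9, which encodes a subunit of the factor that binds the interferon-stimulated response element, at 1.37 ± 0.20. In resting KO, 25 of 30 interferon-induced genes lay above all 6 controls, with or without the library of replicate 3. Of all genes tested, 9.53% did so, or 15.8% without that library. Trim30a, Trim30c and Trim34b lay above the controls too, and the part of interferon-induced genes in the levels of these copies was not tested.

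Genes of the TLR4 to NF-kB route, in which Trim30a acts, had a median log2 fold change of 0.26 in WT. Of 17 tested, 6 rose in WT, 6 in 3'F and 4 in KO, and 0 fell in any of the 3 by edgeR. Of all genes, 16.3%, 17.2% and 14.3% were called higher in the same tests. The adaptor gene Myd88 rose by 1.61 ± 0.23 and Nfkbia, which encodes an inhibitor of NF-kB, by 1.28 ± 0.19 in WT (adjusted p of at most 0.00014, edgeR). Ly96, the LPS-binding partner of TLR4, rose by 0.52 ± 0.15 and Ikbkg, the regulatory IKK subunit, by 0.43 ± 0.11 (adjusted p of at most 0.0169, edgeR). Against the 3'F allele, 0 of the 17 genes differed from WT in either state by edgeR.

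For each copy, the 3 genes outside the cluster with the most similar pattern over the 18 libraries were found by Pearson's r of log2 CPM, as a description, since libraries of one group are not independent points. Trim30a was followed most closely by Oas1b (r = 0.997), Gbp7 (r = 0.996) and Znfx1 (r = 0.994), and Trim12c by Herc6 (r = 0.984), Parp9 (r = 0.982) and Gsdmd (r = 0.982). Trim30c was followed by Mx2 (r = 0.982), Cd69 (r = 0.98) and Gm5431 (r = 0.98). Trim34a and Trim30d shared their nearest gene, Gvin1, with r = 0.965 and r = 0.955, ahead of Tagln2 and Pstpip1 for Trim34a and of Ugdh and Atp6v1e1 for Trim30d. Trim5 and Trim12a shared all 3 of their nearest genes, Abhd3 (r = 0.955 and 0.948), Emc10 (r = 0.924 and 0.93) and Coq7 (r = 0.912 and 0.904). Abhd3 lies on chromosome 18, and Emc10 and Coq7 lie on chromosome 7. Beside the copies, chromosome 7 held 860 of the 11357 genes tested. Trim34b was followed by Dgat2 (r = 0.97, chromosome 7), Gm14085 (r = 0.963, chromosome 2) and Ppp2r1b (r = 0.932, chromosome 9). The r values of Trim5, Trim12a and Trim34b also take in the differences between KO and the controls. Trim30b was followed by Agpat4, Mcl1 and Cstb, with r between 0.914 and 0.927. Trim6 had the weakest likeness, with Vma21 (r = 0.815), Kif5c (r = 0.79) and Abhd3 (r = 0.776).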

How the data were processed

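Gene counts were deposited by the authors as whole numbers of reads per protein-coding gene, not normalized, for 18 libraries. Per the labels and the study's methods, reads were trimmed with cutadapt 1.8.3, aligned to mm10 with HISAT2 2.1.0 and counted with featureCounts 1.5.3 by strand on Gencode M15, at a mapping quality of 50 or more. A gene length was deposited beside the counts; how it was derived is not given in the sources used here, and it differs from the merged exons of Gencode M21 for 6 of the 10 copies, so levels per kb depend on it. Genes were kept by filterByExpr and tested with edgeR 4.0.16 (TMM factors 0.812 to 1.15, quasi-likelihood test, 1 coefficient per group, all 18 libraries) in R 4.3.3, with Benjamini-Hochberg adjustment over 11357 genes and a threshold of 0.05. In simulated counts of the LPS response in WT on 11357 genes, 35 of 50 genes raised 2-fold and 46 of 50 raised 4-fold were called. DESeq2 1.42.0, limma 3.58.1 (voom with quality weights), RLE factors, no filter, the compared groups alone, a replicate block and leaving out each library were alternatives. The members and gene lists were chosen with earlier results of these data known. The named genes were all copies, the 3 genes most like each, and from each list the 2 largest and 2 smallest log2 fold changes of the WT response to LPS among those called; Trim68 was named after its values were seen. All replicate pairs differed by more than sampling noise. Exact intervals were Clopper-Pearson at 95%. Sequences came from RefSeq and Gencode M21 transcripts.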

Additional observations from a re-analysis of the deposited data

How the results depend on the processing

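Most counts of called copies held under every alternative: 8 to 9 copies rose with LPS in WT and 8 to 10 in 3'F, and 0 were called for 3'F against WT or for the interaction of 3'F against WT. The LPS response in KO was the exception. Its 2 called copies became 1 with RLE factors, 0 when the compared groups were fitted alone, 7 by limma-voom with quality weights (which called 30.3% of all genes higher), and 0 to 7 when a library was left out. Without both the resting KO and the resting 3'F library of replicate 3, an alternative chosen after seeing the data, it was 7. The cause was not tested, except that the fit of the compared groups alone has fewer samples. With a replicate block the number was 5, beside 14.7% of all genes. The resting and LPS libraries of 1 number also share a letter in the count table, but no source used here says that they came from the same mouse. For that reason the main fit did not take them as pairs. Their deviations did go together, since 15 of 18 libraries correlated best with their own number. The correlations of the 9 resting and LPS pairs of the same number ran from 0.03 to 0.32, with 5 above 0.1. The number called in KO thus depends on whether these libraries are pairs.

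The value of Trim6 in KO turned to -0.05 with the replicate block and ran from -0.71 to 0.44 when a library was left out, with -0.28 without the resting KO library of replicate 1. Under limma-voom the difference between the KO and WT responses turned to 0.10 for Trim6, 0.44 for Trim34b and 1.52 for Trim30d, and the last ran from -2.61 to 1.53 when a library was left out (1.53 without the resting KO library of replicate 3) and was 1.49 without both libraries of replicate 3. The copies lower in every resting KO library numbered 2 to 5 when a library was left out, and those higher with LPS numbered 1 to 4. The shares of all genes for the full set do not apply to these counts. Scaling by DESeq2 or RLE moved the median gene by at most 0.04 on the log2 scale. Depth limits Trim34b, Trim5 and Trim12a, which had at most 4 counts in some groups' libraries. Trim6, Trim30b and Trim30c were low too, with at most 10 counts in each resting WT library.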
